A study of Mus musculus with 6 samples.

Results

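Proliferating C2C12 myoblasts were sequenced as 2 replicates for each of 2 hairpins, and the comparison described here is replicate 2 against replicate 1, made within each hairpin. It uses 4 of the 6 libraries of the series, chosen by group and replicate number: MB_shCtrl and MB_shKap1, each with a replicate 1 whose deposited file carries the mark "old" in its name and a replicate 2 whose file does not. The labels do not explain the mark. C2C12 is a mouse myoblast line, labelled as strain C3H. All cells carried a lentivirus, with a short hairpin against luciferase in shCtrl (LV sh-Luc) or against Kap1, the gene Trim28, in shKap1 (LV sh-Kap1). The MB cells grew in DMEM with fetal calf serum. The series also holds 1 library for each hairpin after 48 hours in horse serum with insulin, transferrin and selenium (MT), given here only as values beside the myoblasts. The MT files carry the mark too. Cytoplasmic polyA RNA was measured in all 6 libraries. The labels do not say whether the replicates are separate cultures. The p-values therefore cover the spread among these libraries only, and that spread may be technical. Replicate number and the file mark cannot be told apart.

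Myoblasts are committed muscle precursors that divide in rich serum. When they differentiate, MyoD and myogenin, transcription factors that bind E-box sequences, switch on genes for fusion, the neuromuscular receptor and the sarcomere, and Id proteins hold the MyoD family back in dividing cells. Chemokines such as Ccl2 and Cxcl1 are classical targets of NF-kB, a transcription factor of inflammatory signalling whose inhibitor is encoded by its own target Nfkbia.

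Upstream sequences are shown for 2 genes that stood far higher in replicate 2 (Myog, encoding myogenin, and Chrng, the fetal acetylcholine receptor gamma subunit) and 2 that stood far lower (Cxcl1, a neutrophil chemokine, and Nfkbia). Each is the 250 bases before the RefSeq start in GRCm38.p6, read 5′ to 3′ on the gene's strand: chr1:134289754-134290003 (plus), chr1:87205561-87205810 (plus), chr5:90890995-90891244 (plus) and chr12:55492648-55492897 (minus). Capitals mark E-boxes (CANNTG) in the muscle genes and matches to the NF-kB consensus in the others, searched on both strands.
Myog: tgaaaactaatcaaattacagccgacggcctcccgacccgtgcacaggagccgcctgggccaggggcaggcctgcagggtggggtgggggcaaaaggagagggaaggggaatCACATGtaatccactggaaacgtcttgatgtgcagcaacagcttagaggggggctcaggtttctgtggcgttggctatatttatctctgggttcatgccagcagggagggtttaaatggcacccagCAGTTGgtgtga
Chrng: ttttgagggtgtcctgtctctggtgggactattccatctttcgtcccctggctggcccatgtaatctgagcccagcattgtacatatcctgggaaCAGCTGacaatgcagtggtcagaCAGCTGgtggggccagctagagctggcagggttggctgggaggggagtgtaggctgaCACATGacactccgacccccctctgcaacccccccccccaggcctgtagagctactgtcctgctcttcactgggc
Cxcl1: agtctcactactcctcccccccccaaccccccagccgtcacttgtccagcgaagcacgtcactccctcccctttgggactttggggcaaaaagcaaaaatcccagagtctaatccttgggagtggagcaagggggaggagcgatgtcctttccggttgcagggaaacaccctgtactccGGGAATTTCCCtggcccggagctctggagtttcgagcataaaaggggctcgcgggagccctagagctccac
Nfkbia: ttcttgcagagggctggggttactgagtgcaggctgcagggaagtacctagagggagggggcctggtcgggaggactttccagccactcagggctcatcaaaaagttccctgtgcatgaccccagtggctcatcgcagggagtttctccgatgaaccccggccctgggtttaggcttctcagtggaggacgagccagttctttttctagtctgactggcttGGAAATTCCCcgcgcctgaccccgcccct
The Myog window held 2 E-boxes and the Chrng window 3. The Cxcl1 window held 2 NF-kB matches, which overlap, and the Nfkbia window 1. Among all 32851 windows of this length in the table, 66.2% held an E-box and 7.25% an NF-kB match. Of 51 windows of 39 early muscle genes with an entry, 44 held an E-box (86.3%). Of 19 windows of 15 genes of the chemokine and cytokine list, 7 held an NF-kB match (36.8%). That list also holds complement and other inflammatory genes, Nfkbia among them. Of 21 windows of 18 smooth muscle genes, 5 held a match to the CArG consensus of serum response factor (23.8%, against 1.47% of all windows). None of 21 windows of 17 sterol synthesis genes held TCACNCCAC (1.05% of all windows). A match describes the letters only and shows no binding.

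The libraries held 36247530 to 49839994 counts on genes. Trim28 checks the hairpin labels: it stood at 590 and 423 CPM (counts scaled to library size) in replicates 1 and 2 of MB_shCtrl, and at 150 and 101 CPM in MB_shKap1. Both knockdown libraries lay below both control libraries. Within each hairpin, Trim28 was also lower in replicate 2 (log2 change -0.52, SE 0.09, adjusted p = 0.00465, edgeR quasi-likelihood test, Benjamini-Hochberg). Several library measures moved with the replicate in both hairpins. Reads outside genes were 6.67% and 6.62% in replicate 1 and 5.18% and 5.21% in replicate 2, mitochondrially encoded RNA was 2.46% and 2.49% against 3.74% and 3.40%, and nuclear noncoding RNA was 0.227% and 0.197% against 0.113% and 0.0964%. Their part in the results below was not tested.

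Replicate 2 differed from replicate 1 in many genes, and in the same direction under both hairpins. With the hairpin as a block, 2320 of 14884 genes tested were called higher in replicate 2 (15.6%) and 2170 lower (14.6%), by the edgeR quasi-likelihood test at an adjusted p of 0.05. Of these, 653 and 674 changed at least 2-fold. The difference had the same sign in both hairpins in 4489 called genes and opposite signs in 1. The fit favours this, since a gene's own spread is how far its hairpins disagree. That spread has 1 residual degree of freedom and was moderated toward the trend over all genes (median prior degrees of freedom 7.0). The p-values and SE therefore rest largely on spread shared between genes. Counted without a test, 516 genes were at least 2-fold higher in both hairpins (3.47%) and 551 at least 2-fold lower in both (3.7%). In the same fit the hairpin term called 429 genes (2.88%). The median absolute log2 difference between replicates was 0.28 in both hairpins, and between hairpins it was 0.18 in replicate 1 and 0.15 in replicate 2. With the hairpin block left out, 959 genes were called higher and 720 lower. Among the genes named below, that fit did not call Trim28, Myod1, Id3, Igf2, Tpm2, Musk, Rapsn, Fmod, Postn, Tap1, Mki67, Ccna2, Pola1, Blm, Ldb3, Mylk, Ifi47, Eif2ak2, Gas5, Gas6, Gadd45g or 5 smooth muscle genes. DESeq2 did not call Rapsn, Mylk, Ifi47, Eif2ak2, Blm, Gas5 or Gadd45g. Below, replicates are said not to overlap where both libraries of 1 replicate lay above both of the other. The share of all genes that do so is not given, so such statements describe single genes only.

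**Figure D1:**
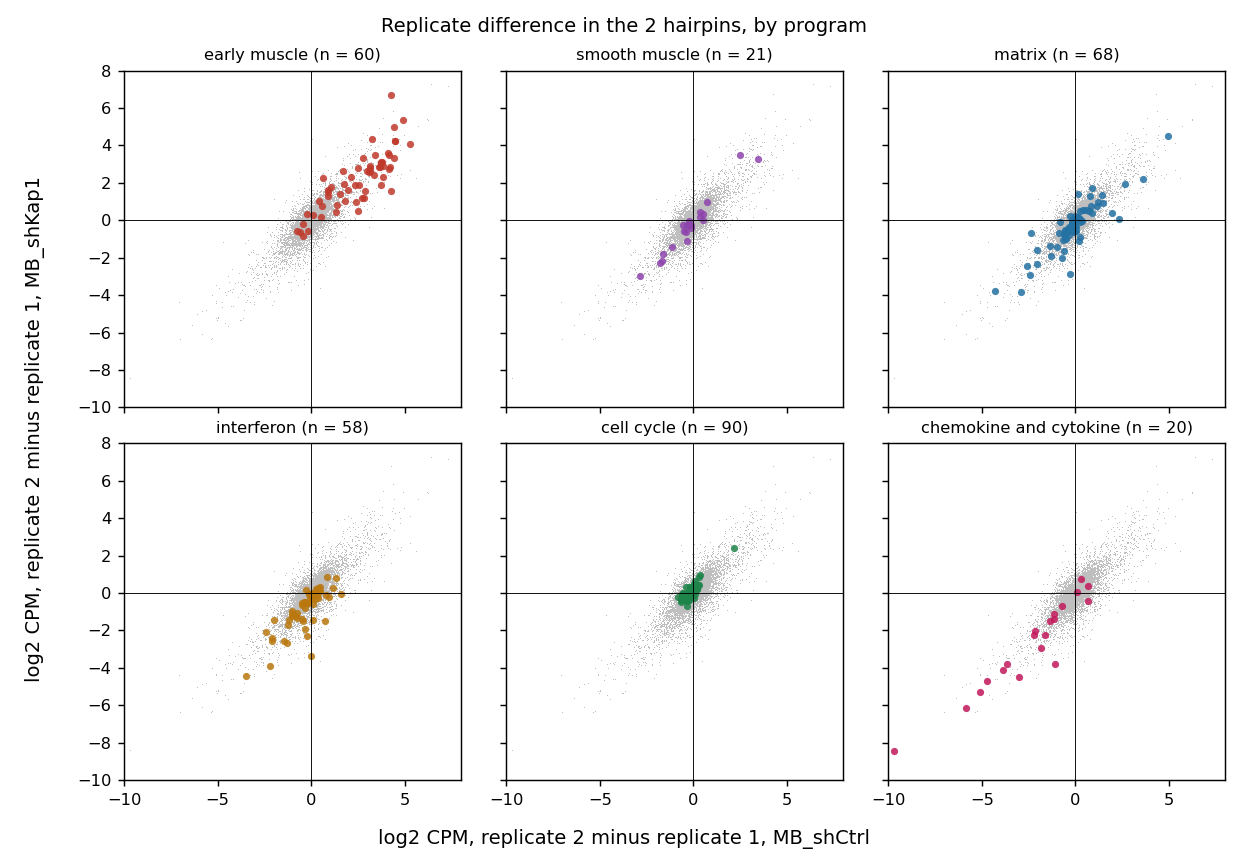
Log2 CPM difference, replicate 2 minus replicate 1, in MB_shCtrl (x axis) and MB_shKap1 (y axis). Grey points are the 14884 genes tested and coloured points the members of 6 gene lists. Early muscle genes spread to the upper right, the chemokine and cytokine list to the lower left, and cell cycle genes sit near 0 apart from E2f2.

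Early muscle genes were higher in replicate 2 in both hairpins. Of 67 listed, 60 were tested, and 50 rose and 4 fell in replicate 2 (83.3% and 6.67%, against 15.6% and 14.6% of all genes). At least 2-fold in both hairpins, 42 were higher and none lower (against 3.47% and 3.7% of all genes). The median log2 change was 2.68, with 2.78 in shCtrl and 2.28 in shKap1, against -0.003 over all genes. Of the 60, 16 passed the low count minimum in replicate 2 only. Such genes lay above the minimum in both replicate 2 libraries and below it in a replicate 1 library or both. Some rise was therefore built in, though a call was not. Among the 44 that passed in both replicates, 35 rose and 4 fell. The 4 that fell were Tpm2 (-0.66), a tropomyosin, Cryab (-0.61), a small heat shock protein, and Musk (-0.69) and Rapsn (-0.33), which gather acetylcholine receptors at the synapse.

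Among the regulators, Myog stood at 1.27 and 33.4 CPM in replicates 1 and 2 of MB_shCtrl and at 0.673 and 14.1 CPM in MB_shKap1. Both replicate 2 libraries lay above both replicate 1 libraries. Its log2 change was 4.57 (SE 0.17, adjusted p = 2.97e-06, edgeR, Benjamini-Hochberg). Myod1, encoding MyoD, went from 11.8 to 31.4 CPM in shCtrl and from 3.43 to 20.5 CPM in shKap1, again without overlap (1.95, SE 0.33, adjusted p = 0.0273, edgeR). Myf5, the MyoD relative of early myoblasts, had 82.6 and 69.5 CPM in shCtrl and 48.7 and 91.8 CPM in shKap1. Its hairpins went opposite ways and it was not called (adjusted p = 0.589, edgeR). Heyl, a transcriptional repressor of the Notch pathway, rose by 4.38 on the log2 scale, and Mef2a, a MADS-box factor, by 0.90. Their relatives Hey1 and Mef2d went the other way, by -1.42 and -0.29. Calls of Hey1 and Mef2d without the hairpin block or with DESeq2 are not given here. Of 25 members of the regulator list tested, 11 rose and 6 fell (44% and 24%, against 15.6% and 14.6% of all genes). Among the 22 that passed the low count minimum in both replicates, 9 rose and 6 fell. Id1 fell from 172 to 39.0 CPM and from 143 to 52.7 CPM (-1.79), and Id3 fell by 1.47. Pax7, the satellite cell factor, was not tested, with 1, 1, 1 and 8 counts.

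Genes of fusion and of the acetylcholine receptor included the following, while Musk and Rapsn, which act on that receptor, fell as given above. Mymk, the membrane protein myomaker, stood at 0.479 and 9.17 CPM in shCtrl and 0.463 and 5.62 CPM in shKap1 (3.93, SE 0.26), and Mymx, its partner myomixer, at 0.12 and 2.27 CPM and at 0.0631 and 0.895 CPM (4.04, SE 0.42). Chrng, whose upstream window is shown above, had 0.239 and 8.57 CPM in shCtrl and 0.231 and 11.5 CPM in shKap1 (5.40, SE 0.26). Mymk and Chrng were higher in both replicate 2 libraries than in both replicate 1 libraries. Mymx, with 5 and 3 counts in replicate 1, passed the low count minimum in replicate 2 only, so some rise was built in. Chrnd, the receptor delta subunit, went from 1.32 to 26.4 CPM and from 0.274 to 33.6 CPM (5.30, SE 0.74, adjusted p = 0.0437, edgeR). This call did not hold with RLE size factors, with all 6 libraries or without a low count filter, and those of Myod1 and Myh3 did not hold under the last 2 settings.

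Sarcomere and calcium genes of the list are given by example. Myh3, embryonic myosin heavy chain, had 2.08 and 30.3 CPM in shCtrl and 2.21 and 11.2 CPM in shKap1 (3.11, SE 0.45, adjusted p = 0.021, edgeR). Myl1, a myosin light chain, had 0.814 and 33.9 CPM and 1.18 and 20.4 CPM (4.70, SE 0.31). Atp2a1, the calcium pump of the sarcoplasmic reticulum, had 0.742 and 13.7 CPM and 0.842 and 10.8 CPM (3.93, SE 0.22). Replicate 2 was above replicate 1 in every one of these pairs. Tnnt1, slow troponin T, rose by 4.43, Acta1, skeletal actin, by 2.12, Ryr1, the calcium release channel, by 3.06, and Des, desmin, by 1.09. Trdn, triadin, which binds the calcium release channel, is outside the list and rose by 5.77. With 7 and 5 counts in replicate 1, Trdn passed the low count minimum in replicate 2 only, so some rise was built in. For scale, Myog stood at 846 CPM in MT_shCtrl and 28.5 CPM in MT_shKap1, and Myh3 at 2272 and 13.4 CPM. The replicate 2 myoblasts lay far below the MT_shCtrl library in both genes.

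**Figure D2:**
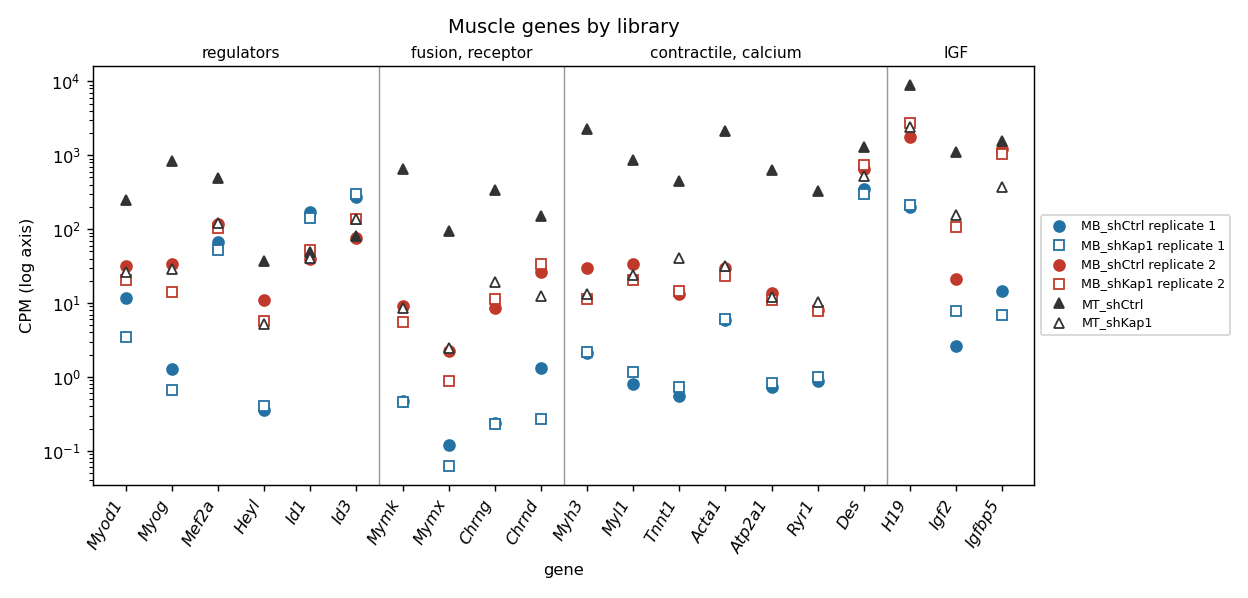
CPM on a log axis for 20 muscle and IGF genes in the 6 libraries, 1 point per library. Blue is MB replicate 1, red MB replicate 2 and dark triangles MT, with filled symbols for shCtrl and open symbols for shKap1. For Myog the red points, 33.4 and 14.1 CPM, lie above the blue points and near the MT_shKap1 library at 28.5 CPM.

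Genes of the insulin-like growth factor (IGF) pathway, which drives muscle differentiation, included some of the largest changes. Igfbp5, an IGF-binding protein, went from 14.4 to 1224 CPM in shCtrl and from 6.96 to 1034 CPM in shKap1 (6.79, SE 0.25, adjusted p = 0.00012, edgeR, Benjamini-Hochberg). H19, an imprinted noncoding RNA, went from 197 to 1748 CPM and from 212 to 2711 CPM (3.41). Igf2, its imprinted neighbour and a growth factor, went from 2.59 to 21.3 CPM and from 7.78 to 106 CPM (3.47). Replicate 2 stood above replicate 1 with no overlap in all 3 genes. Of 19 IGF genes tested, 9 rose and 5 fell (47.4% and 26.3%, against 15.6% and 14.6% of all genes). Among the 18 that passed the low count minimum in both replicates, 8 rose and 5 fell. The largest fall was that of Igfbp7, from 162 to 49.2 CPM in shCtrl and from 235 to 55.2 CPM in shKap1 (-1.90). Its call without the hairpin block is not given here. Stc1, a secreted glycoprotein hormone, had 1 count in the 2 replicate 1 libraries together and 692 in replicate 2, a ratio of 738 (95% interval 132 to 29200, counting error only). Wnt7b, a secreted Wnt ligand, rose by 6.17, and it stood below 0.2 CPM in both MT libraries (0.0854 and 0.183 CPM). Stc1 and Wnt7b passed the low count minimum in replicate 2 only, so some rise was built in for both.

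Smooth muscle genes split. Of 24 listed, 21 were tested, 5 rose and 8 fell (23.8% and 38.1%, against 15.6% and 14.6% of all genes), and 2 were at least 2-fold higher and 5 at least 2-fold lower in both hairpins (against 3.47% and 3.7%). Among the 20 that passed the low count minimum in both replicates, 4 rose and 8 fell. The median log2 change was -0.25 (-0.24 in each hairpin). The 5 that were lower at least 2-fold in both are actin-binding or actin genes of the contractile smooth muscle cell. Cnn1, calponin, went from 37.5 to 5.18 CPM in shCtrl and from 86.9 to 10.9 CPM in shKap1 (-2.93, SE 0.11, adjusted p = 2.8e-06, edgeR). Tagln, transgelin, went from 293 to 84.1 CPM and from 925 to 188 CPM (-2.05, SE 0.14). Acta2, smooth muscle actin, went from 2664 to 1221 CPM and from 4666 to 1736 CPM (-1.28, SE 0.11). Each replicate 2 library was below both replicate 1 libraries for these genes. Actg2, another smooth muscle actin, fell by 1.71 and Lmod1, an actin nucleator, by 1.98, although for Lmod1 the shKap1 replicate 2 library (6.75 CPM) lay above the shCtrl replicate 1 library (5.89 CPM). None of the 5 was called without the hairpin block. The 5 genes that rose were Susd5 (3.50), Pdlim3 (3.44), Vcl (0.87), Ldb3 (0.43) and Mylk (0.39). Susd5 passed the low count minimum in replicate 2 only, so some rise was built in. Pdlim3 and Ldb3 encode proteins of the Z-disc of striated muscle. Of the smooth muscle markers proper, Myh11, smooth muscle myosin, and Myocd, the smooth muscle coactivator, were too low to be tested, with at most 5 counts in any library. Mesenchymal markers summed to 8016 and 8465 CPM in replicate 1 and 7727 and 8423 CPM in replicate 2, most of it Vim (4949 to 5553 CPM). Thy1, Tcf21, Dpp4 and Kcnj8 of this list were too low to be tested, with at most 4 counts in any library. Of 19 tested, 5 were higher and 7 lower (26.3% and 36.8%, against 15.6% and 14.6% of all genes). Among the 16 that passed the low count minimum in both replicates, 4 were higher and 6 lower. The part of these markers in the smooth muscle and matrix differences was not tested.

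Matrix genes went both ways. Of 74 listed, 68 were tested, 15 rose and 24 fell (22.1% and 35.3%, against 15.6% and 14.6% of all genes), and 4 were higher and 8 lower at least 2-fold in both hairpins (against 3.47% and 3.7%). Among the 64 that passed the low count minimum in both replicates, 15 rose and 21 fell, and 3 others passed in replicate 1 only. The major structural genes Col1a1 (3309 and 3590 CPM in shCtrl, 5512 and 5930 CPM in shKap1) and Fn1 (2778 and 2682, 4323 and 4006 CPM) were not called (adjusted p = 0.435 and 0.577, edgeR). Dcn, the collagen-binding proteoglycan decorin, went from 0.862 to 28.1 CPM and from 1.41 to 32.7 CPM (4.75, SE 0.17). Col3a1, a fibrillar collagen, rose by 1.09 and Lama5, a laminin chain, by 1.38. Timp3, a metalloproteinase inhibitor, went from 337 to 81.6 CPM and from 355 to 69.2 CPM (-2.20, SE 0.11). Fmod, fibromodulin, fell by 2.52 and Postn, periostin, by 1.20. The groups did not overlap for Dcn or Timp3, while for Postn the shKap1 replicate 2 library (260 CPM) lay above the shCtrl replicate 1 library (231 CPM). The median over the list was -0.21. It came to -0.003 without replicate 1 of MB_shKap1, in a fit that also drops the hairpin term and so mixes hairpin and replicate.

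Most genes of the chemokine and cytokine list fell. The list also holds complement genes, Nfkbia, Tnfaip3 and other inflammatory genes, so its counts are not of chemokines and cytokines alone. Of 28 listed, 20 were tested, 1 rose and 15 fell (75.0% lower, against 14.6% of all genes). Of the 20, 3 passed the low count minimum in replicate 1 only, so some fall was built in. Among the 17 that passed in both replicates 1 rose and 12 fell. At least 2-fold in both hairpins, 15 were lower and none higher (against 3.7% and 3.47% of all genes): 14 of the called genes, without Tnfaip3 (-0.72), and Cxcl12, which was not called. Cxcl5, a neutrophil chemokine, went from 373 to 6.53 CPM in shCtrl and from 393 to 5.56 CPM in shKap1 (-5.99, SE 0.13, adjusted p = 3.17e-07, edgeR, Benjamini-Hochberg). Ccl2, a monocyte chemokine, went from 533 to 15.6 CPM and from 493 to 12.8 CPM (-5.18, SE 0.11). Cxcl1 went from 150 to 5.51 CPM and from 150 to 5.83 CPM (-4.72, SE 0.10). In all 3 genes the hairpins had nearly the same level within a replicate, and the replicates were far apart. Ccl7, a monocyte chemokine, fell by 4.02, the cytokine gene Il6 by 3.97, Nfkbia by 2.11 and Csf1, the macrophage growth factor, by 1.14. C3, a complement protein, had 2355 counts in replicate 1 and none in replicate 2, at least 736-fold lower against a floor of 3 counts over the group. It passed the low count minimum in replicate 1 only. Cxcl12, a stromal chemokine, had 370 and 176 CPM in shCtrl and 234 and 17.1 CPM in shKap1, lower in replicate 2 of both hairpins but by unequal amounts, and it was not called (adjusted p = 0.395, edgeR). Both MT libraries, whose files carry the mark, had 291 and 94.0 CPM of Cxcl5 and 268 and 114 CPM of Ccl2, above both replicate 2 myoblast libraries. Macrophage and immune cell markers were low, with 3 of 13 tested and a summed level of 13.9 and 15.7 CPM in replicate 1 and 11.2 and 13.3 CPM in replicate 2. Of these, Cd68 (-0.97) and Csf1r (-2.47) fell, and Csf1r passed the low count minimum in replicate 1 only. Ptprc, the pan-leukocyte marker, had 0 to 2 counts in any library and Adgre1, a macrophage marker, had 0 in all 4. The part of these markers in the chemokine difference was not tested.

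**Figure D3:**
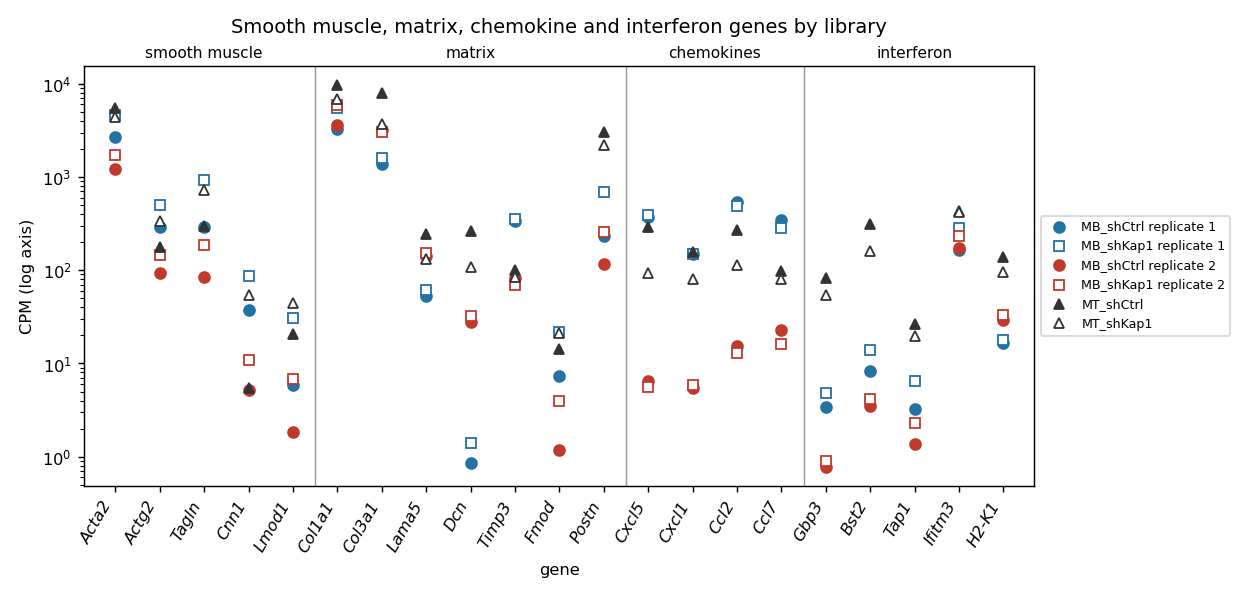
CPM on a log axis for smooth muscle, matrix, chemokine and interferon genes in the 6 libraries, with the same symbols as the muscle plot. The chemokines show both MB replicate 2 libraries between 5.51 and 23.1 CPM and both MB replicate 1 libraries between 150 and 533 CPM.

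Interferon genes that changed were mostly lower in replicate 2, and the list's median differed between hairpins. Of 77 listed, 58 were tested, 3 rose (Ifi47 by 1.06, H2-K1 by 0.86 and Eif2ak2 by 0.33) and 21 fell (5.17% and 36.2%, against 15.6% and 14.6% of all genes). Of the 58, 5 passed the low count minimum in replicate 1 only and 1 in replicate 2 only, and among the 52 that passed in both 3 rose and 16 fell. None was at least 2-fold higher in both hairpins and 12 were at least 2-fold lower (against 3.47% and 3.7% of all genes). The median was -0.15 in shCtrl and -0.53 in shKap1, and over the fit -0.39. It came to -0.06 without replicate 1 of MB_shKap1, in a fit that also drops the hairpin term and so mixes hairpin and replicate. Gbp3, a guanylate-binding protein, went from 3.42 to 0.772 CPM in shCtrl and from 4.86 to 0.895 CPM in shKap1 (-2.30, SE 0.25). Bst2, the virus tether tetherin, went from 8.33 to 3.49 CPM and from 13.8 to 4.13 CPM (-1.51, SE 0.18). Tap1, a peptide transporter of antigen presentation, went from 3.23 to 1.37 CPM and from 6.48 to 2.32 CPM (-1.37, SE 0.22). In all 3 genes both replicate 2 libraries lay below both replicate 1 libraries. Ifit1, chosen after its values were seen, shows the disagreement between hairpins: it had 0.718 and 0.698 CPM in shCtrl and 5.76 and 0.528 CPM in shKap1. Gbp and H2 genes have near-identical relatives, so their counts are uncertain.

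Cell cycle genes that changed did so by small amounts, except E2f2. All 90 listed were tested, 5 rose and 19 fell (5.56% and 21.1%, against 15.6% and 14.6% of all genes). At least 2-fold in both hairpins, 1 was higher and none lower (against 3.47% and 3.7% of all genes). The median log2 change was -0.10 (-0.17 in shCtrl, -0.04 in shKap1). It came to 0.02 without replicate 1 of MB_shCtrl, in a fit that also drops the hairpin term and so mixes hairpin and replicate. The 1 large change was E2f2, an activator of S phase genes, from 9.75 to 44.0 CPM and from 8.56 to 46.3 CPM (2.30, SE 0.11, adjusted p = 1.3e-05, edgeR). The other 4 that rose were Ccna2 (0.66), a cyclin, Mki67 (0.57), the proliferation antigen, Pola1 (0.38) and Blm (0.33). Of the 19 that fell, Mcm10, a replication initiation factor, fell most (-0.57). Others among them were Kif2c (-0.53), Pole (-0.45), Rrm2 (-0.44), Tk1 (-0.41) and Tyms (-0.40). Calls of these others without the hairpin block or with DESeq2 are not given here. The growth factor-responsive cyclin Ccnd1 (329 and 304 CPM in shCtrl, 260 and 329 CPM in shKap1) and the cell cycle inhibitor Cdkn1a (164 and 161, 266 and 138 CPM) were not called (adjusted p = 0.534 and 0.263, edgeR). Both belong to a list of cell cycle exit genes, of which 8 of 21 tested rose and 3 fell (38.1% and 14.3%, against 15.6% and 14.6% of all genes). Those that rose included Gas2 (2.04), a growth arrest gene, Ccnd2 (1.85), a cyclin, and Gadd45a (1.54), a stress-induced inhibitor of growth. The 3 that fell were Gas6 (-3.32), Gas5 (-0.37) and Gadd45g (-0.29). Gas6 passed the low count minimum in replicate 1 only.

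Genes of sterol and fatty acid synthesis, many of them targets of the transcription factor SREBP, were higher in replicate 2. Of 27 tested of 28 listed, 26 rose and none fell (96.3% higher, against 15.6% of all genes), with a median of 0.88. In both hairpins 9 were at least 2-fold higher (against 3.47% of all genes). Scd1, a fatty acid desaturase, went from 242 to 751 CPM in shCtrl and from 192 to 704 CPM in shKap1 (1.75, SE 0.10). Insig1, a protein that helps retain SREBP, went from 72.5 to 197 CPM and from 63.8 to 176 CPM (1.45, SE 0.09). Sqle, squalene epoxidase, rose by 0.92. The groups did not overlap for Scd1 or Insig1. Of 26 genes of the endoplasmic reticulum stress response and of ATF4, 17 rose and none fell (65.4% higher, against 15.6% of all genes), among them Trib3, a pseudokinase (3.15), Chac1, a glutathione-degrading enzyme (1.79), and Asns, asparagine synthetase (1.07).

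**Figure D4:**
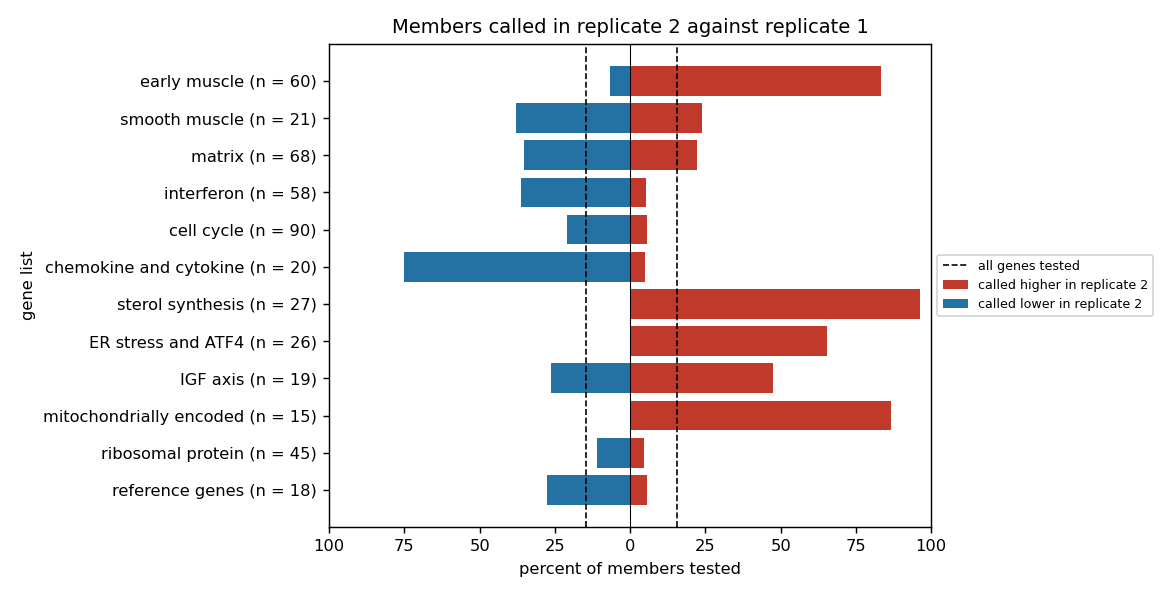
Percent of the members tested that were called higher (red, right) or lower (blue, left) in replicate 2 for 12 gene lists. Dashed lines mark all genes tested, 15.6% higher and 14.6% lower. Early muscle and sterol synthesis bars reach 83.3% and 96.3% on the higher side, and the chemokine bar 75.0% on the lower side. The early muscle list includes 16 genes that passed the low count minimum in replicate 2 only. The chemokine bar counts 3 genes that passed it in replicate 1 only.

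The difference was uneven over chromosomes. Among 10461 genes with a mean of at least 5 CPM, chromosome 5 had a median log2 difference of -0.21 in shCtrl and -0.15 in shKap1 over 658 genes, and 31.8% of them were called lower against 15.5% of all such genes. Chromosome 12 had medians of 0.12 and 0.18 over 352 genes, with 29.3% called higher against 17.8%. It did not stand apart: chromosomes 14, 10 and X had 27.15%, 25.49% and 25.48% called higher, and X had a shCtrl median of 0.127. Along chromosome 5, divided by gene order into 10 bins, the 66 genes of bin 1 had medians of -0.06 and -0.07. The lowest median was in bin 8 in shCtrl (-0.37) and in bin 10 in shKap1 (-0.24).

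**Figure D5:**
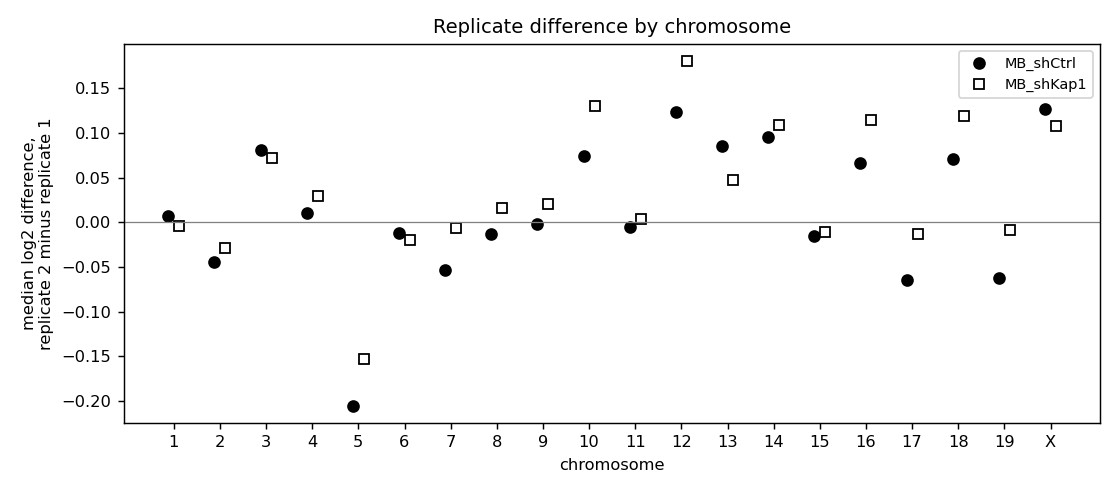
Median log2 difference, replicate 2 minus replicate 1, of genes with a mean of at least 5 CPM on each chromosome, for MB_shCtrl (filled) and MB_shKap1 (open). Chromosome 5 is lowest in both hairpins, at -0.21 and -0.15.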

How the data were processed

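The deposited files give raw counts by Ensembl gene for 6 libraries. Reads were aligned with TopHat2 2.0.11 to mm9 and counted with HTSeq, per the submitters' processing notes; the sources used here name no annotation release, strand setting or counting mode, so antisense and near-identical genes are uncertain. Rows that name no gene (5.18% to 8.07% no feature) were left out. Symbols came from a later mouse annotation by Ensembl identifier and matched 32919 of 37991 genes. The 4 MB libraries were fitted with edgeR 4.0.16 (R 4.3.3, quasi-likelihood, robust, TMM, filterByExpr by replicate), with terms for hairpin and replicate and 1 residual degree of freedom, and p-values were adjusted by Benjamini-Hochberg over 14884 genes. CPM are TMM-scaled, MT libraries to the same reference. Log2 differences per hairpin use a prior count of 2 and have no test. The fit was also run on simulated counts, and the outcome is not reported here.

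Replicates are paired by hairpin because each pair shares its hairpin label. Log2 CPM correlated at 0.966 and 0.962 between replicates of a hairpin, and at 0.988 and 0.987 between hairpins of a replicate, across genes. Members and gene lists were chosen with earlier results of these data known. Named genes were the 12 largest called changes each way with a mean of at least 1 CPM, up to 8 members of each list with the smallest p, up to 4 with the highest CPM, a fixed set of 18 genes, and genes whose hairpins went furthest opposite ways. Genes behind a count of 5 or fewer, and Ifit1, Il6, Sqle, Tnfaip3, Cd68, Csf1r, Gadd45g and other marker genes were named after their values were seen. Some genes so chosen are not reported here. The promoter windows come from RefSeq on GRCm38.p6, another build than mm9, and no position was carried between builds. Chromosomes came from the later annotation.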

Additional observations from a re-analysis of the deposited data

Results flagged for a closer look

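In 6 named genes the replicate difference went opposite ways in the hairpins, each by at least 1.5-fold; with 1 library on each side, this was not tested, and none was called. Given as the shCtrl minus the shKap1 log2 difference, it was 3.32 for Igf1, 3.28 for Gsta3, 2.84 for Rgcc, 2.74 for Tgtp2, -2.40 for Serpina1d and -2.04 for Apob. Igf1, the growth factor, had 0.287 and 1.52 CPM in replicates 1 and 2 of shCtrl and 2.78 and 1.29 CPM in shKap1. Serpina1d had 3 and 0 counts in shCtrl, so its direction there and its value depend on the prior count. Tgtp2 and Serpina1d have near-identical relatives, so their counts are uncertain.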

How the results depend on the processing

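Against 2320 genes called higher and 2170 lower, no replicate block (hairpin term left out) gave 959 and 720. It shared 1672 of the 4490 calls (37.2%). DESeq2 called 1598 higher and 1308 lower and shared 2842 of the 4490 calls (63.3%). A tested fold above 1.5 left 593 and 491. Leaving out 1 library at a time, which also drops the hairpin term, gave 244 to 946 higher and 158 to 747 lower. With total library size 48.5% of calls were higher, against 51.7%. Genes at least 2-fold alike numbered 516 higher and 551 lower. They were 213 and 204 at a mean of at least 5 CPM (341 lower at 1 CPM), 1103 and 1094 at 1.5-fold, and 189 and 164 at 4-fold.

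Leaving out 1 library, list medians ran from 2.25 to 2.87 (early muscle), -0.36 to -0.10 (smooth muscle), -0.37 to -0.0026 (matrix), -0.65 to -0.064 (interferon) and -0.22 to 0.016 (cell cycle). The smooth muscle median was -0.26 without the block, -0.25 with DESeq2, RLE factors, no low count filter or all 6 libraries, -0.28 with total library size and -0.18 with GC and length trends removed, chosen after seeing the data. Signs reversed for Igf1 without the block (-0.14) and Serpina1d with DESeq2 (-0.91). Leaving out 1 library, signs reversed within -0.036 to 0.73 for Myf5, -0.28 to 0.52 for Col1a1, -0.39 to 0.27 for Fn1, -0.059 to 0.28 for Ccnd1, -1.86 to 0.81 for Trim28, -0.98 to 2.27 for Igf1, -1.91 to 0.32 for Gsta3, -2.07 to 0.79 for Rgcc, -0.67 to 1.66 for Tgtp2, -8.17 to 4.47 for Serpina1d, -0.91 to 0.91 for Apob, -0.77 to 0.23 for Gadd45g and -0.37 to 1.13 for Mylk.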

Other observations

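Histone genes of replication, whose messages mostly lack a polyA tail, rose in 4 of 13 tested and fell in none. That was 30.8% higher, against 15.6% of all genes, with a median log2 change of 0.89. Mitochondrially encoded genes rose in 13 of 15 tested and fell in none (86.7% higher, against 15.6% of all genes). Ribosomal protein genes rose in 2 and fell in 5 of 45 (4.44% and 11.1%, against 15.6% and 14.6% of all genes). After GC and length trends were removed, the chromosome 5 median was -0.23 in shCtrl and -0.17 in shKap1. The chromosome 12 median was then 0.08 in shCtrl and 0.16 in shKap1.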
